A study of Mus musculus with 30 samples.

Results

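A set of 10 genes of quinone, carbonyl, and epoxide detoxication were followed in mouse liver: the NAD(P)H quinone oxidoreductases Nqo1 and Nqo2, the carbonyl reductases Cbr1, Cbr3, and Cbr4, the aldo-keto reductases Akr1a1 and Akr7a5, the epoxide hydrolases Ephx1 and Ephx2, and prostaglandin reductase Ptgr1. They were chosen by their symbols in the mouse GENCODE annotation, and each of the 10 matched 1 row of the 55335 genes in the count table. Livers came from 30 male mice, 7 to 10 weeks old, of an albino C57BL/6J strain, B6(Cg)-Tyr c-2J/J. Wild-type mice were compared with homozygous C151S mice, whose edited Keap1 gene (CRISPR-Cas9) encodes serine instead of the sensor cysteine named in C151S, and with homozygous Nrf2-knockout mice. Both mutant alleles are carried by all cells of the animal, so that a change in the liver is not limited to an effect in hepatocytes. In each genotype, 5 mice received vehicle (DMSO and Cremophor-EL in PBS) and 5 received CDDO-Me (bardoxolone methyl), a synthetic oleanane triterpenoid, at 30 µmol/kg in 1 oral dose 24 hours before the livers were taken. Comparing treatment within each genotype asks whether induction of these enzymes by CDDO-Me needs NRF2 and the KEAP1 cysteine. Comparing vehicle-treated mice asks how basal expression differs between the genotypes. The wild-type mice were obtained from the Jackson Laboratory, while the mutant mice came from matings of homozygotes. Effects of a mutation and of the colony therefore cannot be told apart in comparisons between genotypes.

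NRF2 is a transcription factor that binds antioxidant response elements together with small Maf proteins, and KEAP1 is the adaptor that marks it for degradation. Electrophiles that react with sensor cysteines of KEAP1 let NRF2 accumulate. NQO1 reduces quinones directly to hydroquinones without passing through the semiquinone, carbonyl and aldo-keto reductases turn reactive aldehydes and ketones into alcohols, microsomal EPHX1 hydrolyses epoxides of foreign compounds, and cytosolic EPHX2 mainly hydrolyses epoxides of fatty acids. PTGR1 reduces the double bond of unsaturated aldehydes and ketones. In the liver these enzymes act before or beside glutathione conjugation.

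Between 23667068 and 42073169 reads per library fell on genes, and expression is given in CPM, relative to the library size after normalization by the trimmed mean of M values. The targeted gene was examined first: Nfe2l2, which encodes NRF2, stood at 60.1 to 69.7 CPM in vehicle-treated wild-type mice and at 29.4 to 39.7 CPM in vehicle-treated Nrf2-knockout mice, so its transcript was reduced but still counted. The C151S change is a substitution that gene counts cannot show. The summed level of 8 hepatocyte markers was 74953 to 157650 CPM per library, while that of 6 Kupffer cell markers was 92.8 to 296 CPM and that of 5 lymphocyte markers 1.41 to 5.84 CPM. None of the 8 hepatocyte markers was at the floor of 3 counts. In whole liver, fewer cells of a type and less RNA per cell cannot be told apart. Arntl, a core gene of the circadian clock, parted the libraries: 11 of the mutant libraries, and no wild-type library, lay on the low side of a wide gap.

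The promoters of Nqo1 and Cbr3, the members with the largest increases in wild-type mice, are shown because their start sites in RefSeq lie within 4 bases of those in GENCODE. Sequences are from RefSeq on GRCm38.p6, run 5′ to 3′ on the gene's own strand, and end with the first transcribed base, in capitals. That of Nqo1 covers chr8:107403205-107403455 on the minus strand, and that of Cbr3 chr16:93682969-93683219 on the plus strand.
Nqo1: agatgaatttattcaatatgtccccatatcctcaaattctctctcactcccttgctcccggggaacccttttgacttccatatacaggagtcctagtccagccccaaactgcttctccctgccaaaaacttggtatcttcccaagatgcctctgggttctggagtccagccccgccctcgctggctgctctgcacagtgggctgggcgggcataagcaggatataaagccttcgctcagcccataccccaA
Cbr3: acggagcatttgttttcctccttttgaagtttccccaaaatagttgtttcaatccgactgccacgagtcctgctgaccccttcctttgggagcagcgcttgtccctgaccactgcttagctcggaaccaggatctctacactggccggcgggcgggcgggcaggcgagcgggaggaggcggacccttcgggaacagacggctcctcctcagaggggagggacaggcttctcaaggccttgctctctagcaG
RefSeq windows, from 250 bases before to 50 bases after a start, were found for 9 of the members, with 10 windows in all. The core of the antioxidant response element, searched as TGACNNNGC on both strands, occurred in 0 of these 10 windows and in 12.4% of 32851 windows of the genome. The looser TGANNNNGC, which contains the first, occurred in 1 window, that of Cbr4, and in 41.3% of all windows. The RefSeq starts of Cbr1 and Ephx1 lie 1984 and 3335 bases downstream of the GENCODE starts, and that of the second Nqo2 window 2466 bases. Ephx2 had no window. Sequence outside the windows was not searched, so the absence of the motif from a window does not show that a member lacks the element.

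Cbr1 and Cbr3 are close relatives that lie 72709 bases apart on chromosome 16, so the possibility that reads of one were credited to the other was examined in the sequences. Their coding sequences are 831 bases each and identical at 77.8% of aligned bases. The most similar stretch of 60 bases, coding bases 146 to 205 in each, is shown because it is where a read could least be told apart, with the differing base in capitals.
Cbr1: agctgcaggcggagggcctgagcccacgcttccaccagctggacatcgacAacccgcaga
Cbr3: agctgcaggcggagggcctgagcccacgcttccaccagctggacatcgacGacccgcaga
Of the 50-base windows of the transcripts, the length of a read, 49 of 2645 in Cbr1 and 1 of 1254 in Cbr3 also occur in another gene. The 1 window of Cbr3 is shared with Cbr1, and Cbr1 also shares windows with Gm5678. Nqo1 and Nqo2 are more distant, at 61.1% identity over their coding sequences of 822 and 693 bases. Their most similar stretch of 60 bases, coding bases 289 to 348 in each, has 14 differing bases, in capitals, and no 50-base window of Nqo1 occurs in another gene.
Nqo1: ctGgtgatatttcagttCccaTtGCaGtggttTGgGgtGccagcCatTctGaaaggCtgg
Nqo2: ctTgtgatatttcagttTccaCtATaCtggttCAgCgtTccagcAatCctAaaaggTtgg

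CDDO-Me raised 4 of the 10 enzymes in wild-type livers: Cbr3, Nqo1, Cbr1, and Ephx1. A gene was called when edgeR's quasi-likelihood test gave a Benjamini-Hochberg false discovery rate (FDR) under 0.05 and the log2 fold change was at least 0.5 in size. By that rule 2.75% of the 13697 genes tested were called, 227 higher and 150 lower. All 10 members were tested. The median log2 fold change of the members was 0.31, against -0.01 for all genes. The summed level of the 8 hepatocyte markers was 98963 to 121400 CPM with vehicle and 83922 to 105780 CPM after CDDO-Me in wild-type mice, and its part in the result was not tested. The same comparison called 0 members in C151S mice, where 0.092% of 14128 genes were called, and 0 members in Nrf2-knockout mice, where 0.0% of 14474 genes were called. At an unadjusted p under 0.05 there was 1 member in each mutant, Nqo2 in C151S and Cbr1 in Nrf2-knockout mice, and DESeq2 called 0 members in both. Over all genes, the count at an unadjusted p under 0.05 was 1942 in C151S and 1136 in Nrf2-knockout mice, and DESeq2 called 100 and 52 genes.

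**Figure D1:**
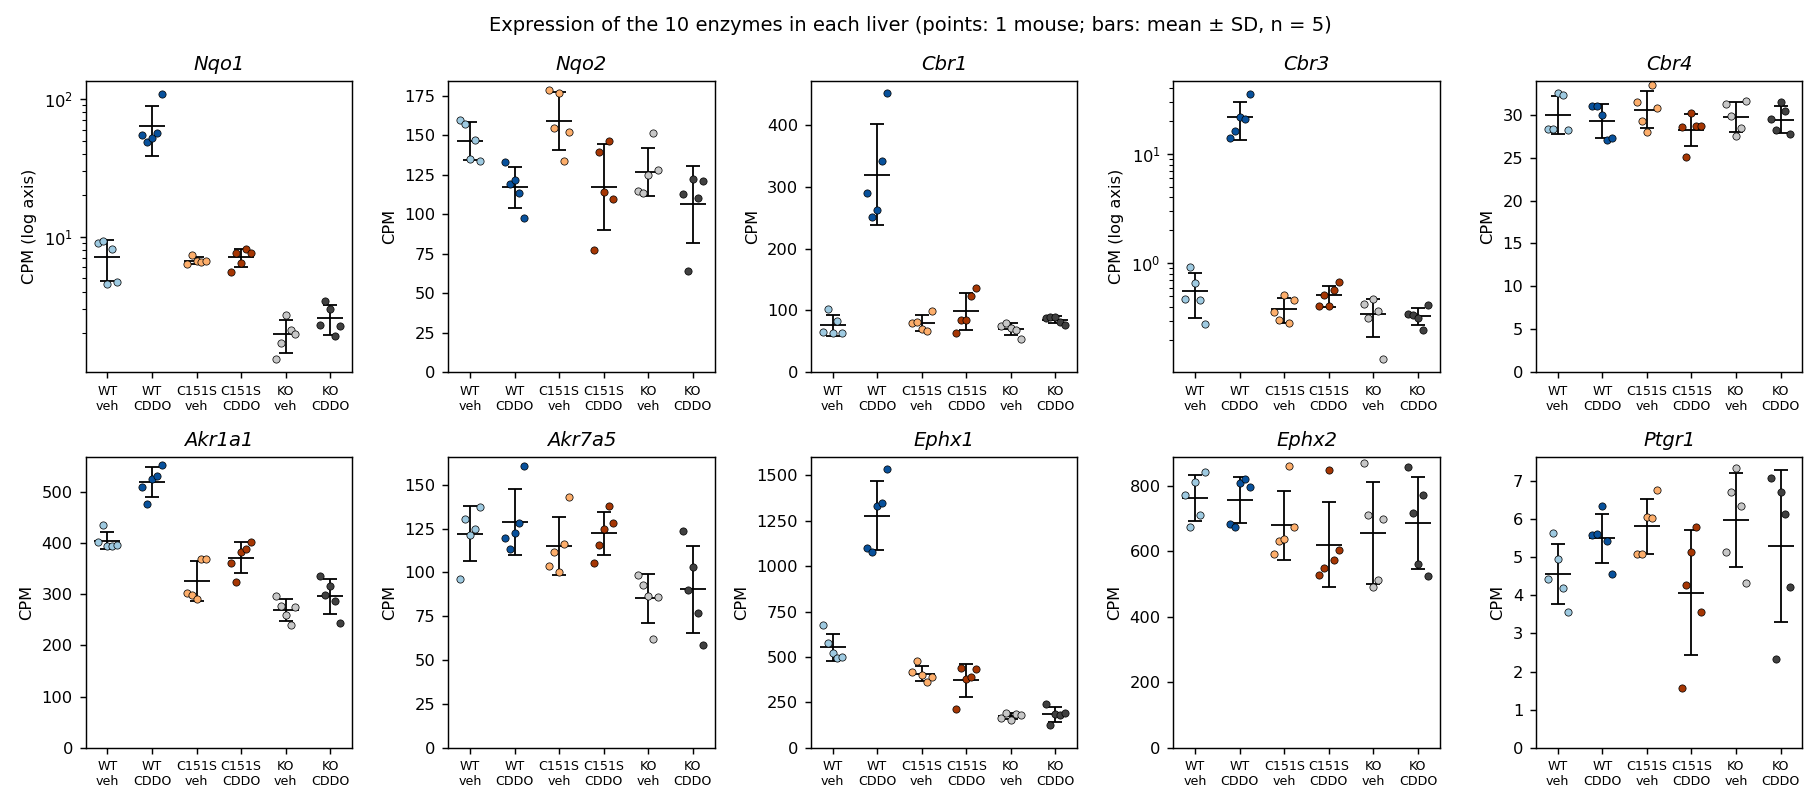
Expression of the 10 enzymes in CPM on the vertical axes, with 1 point per mouse in replicate order, and mean ± SD for each of the 6 groups (n = 5; veh, vehicle; KO, Nrf2-knockout). The axes of Nqo1 and Cbr3 are logarithmic and the others start at 0. The CDDO-Me-treated wild-type mice lie above all other mice for Nqo1, Cbr1, Cbr3, and Ephx1.

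Nqo1 (ENSMUSG00000003849.8), on chromosome 8 of GRCm38 from 107388225 to 107403206, measured 9.04, 9.26, 4.53, 8.17, and 4.71 CPM in the 5 vehicle-treated wild-type mice. After CDDO-Me it measured 54.6, 48.5, 51.9, 56.4, and 109 CPM. The groups did not overlap, and the last of the treated mice stood well above the other 4. On average 7.14 ± 2.34 CPM became 64.0 ± 25.1 CPM (SD, n = 5 each), an 8.96-fold increase with a log2 fold change of 3.16 ± 0.28 (SE, FDR 3.87e-05). Without that mouse, replicate 5, the log2 fold change was 2.89.

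In C151S mice Nqo1 measured 6.33, 7.37, 6.63, 6.55, and 6.64 CPM with vehicle and 5.59, 7.58, 6.39, 8.12, and 7.66 CPM with CDDO-Me. In Nrf2-knockout mice it measured 1.30, 1.69, 2.71, 2.12, and 1.98 CPM with vehicle and 2.28, 3.43, 2.97, 1.89, and 2.26 CPM with CDDO-Me. In both mutants the treated and vehicle groups overlapped, with log2 fold changes of 0.07 ± 0.12 (FDR 0.81) in C151S and 0.37 ± 0.23 (FDR 0.723) in Nrf2-knockout mice.

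Nqo2 (ENSMUSG00000046949.16, chromosome 13 from 33964687 to 33988443), a quinone reductase that uses dihydronicotinamide riboside rather than NADH or NADPH, took the other direction without passing the test. It averaged 146 ± 12.01 CPM with vehicle and 117 ± 12.9 CPM with CDDO-Me in wild-type mice (SD, n = 5 each), and the groups came within 1 CPM of each other at 133 CPM without overlapping. Its log2 fold changes were -0.33 ± 0.09 (FDR 0.0581) in wild-type, -0.45 ± 0.16 (FDR 0.351) in C151S, and -0.27 ± 0.17 (FDR 0.722) in Nrf2-knockout mice. DESeq2 gave the wild-type value an adjusted p of 0.0146, still under the size threshold. Serpinb6a overlaps Nqo2 on the opposite strand, and only counts of the matching strand were used.

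Because the level of Nqo1 rose while that of Nqo2 did not, their order changed. Per kilobase of exon, Nqo1 stood at 0.125 ± 0.0326 of Nqo2 in vehicle-treated wild-type mice and at 1.49 ± 0.791 after CDDO-Me (SD, n = 5 each), above 1 in 5 of 5 treated mice. In C151S mice the ratio was 0.111 ± 0.0156 with vehicle and 0.161 ± 0.0229 with CDDO-Me, and in Nrf2-knockout mice it was 0.0403 ± 0.00992 and 0.0698 ± 0.0398. It stayed below 1 in all 20 mutant libraries. These ratios within a library are descriptions and were not tested.

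Cbr3 (ENSMUSG00000022947.8, chromosome 16 from 93683215 to 93690990), a carbonyl reductase with a narrower range of substrates than CBR1, had the largest increase of the members. It measured 0.474, 0.933, 0.658, 0.463, and 0.281 CPM in vehicle-treated wild-type mice and 14.04, 16.3, 21.9, 20.6, and 35.1 CPM after CDDO-Me. The vehicle values rest on 8 to 27 counts per library and the treated values on 362 to 1142. The means, 0.562 ± 0.247 and 21.6 ± 8.19 CPM (SD, n = 5 each), differed 38.4-fold, with a log2 fold change of 5.24 ± 0.31 (SE, FDR 3.63e-06). A filter that requires at least 10 counts in every library removes Cbr3 from this comparison.

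In the mutants Cbr3 stayed near its vehicle level. C151S mice measured 0.357, 0.301, 0.518, 0.288, and 0.463 CPM with vehicle and 0.409, 0.518, 0.406, 0.566, and 0.674 CPM with CDDO-Me. Nrf2-knockout mice measured 0.424, 0.314, 0.477, 0.370, and 0.134 CPM with vehicle and 0.345, 0.341, 0.317, 0.244, and 0.416 CPM with CDDO-Me. Both pairs of groups overlapped, at log2 fold changes of 0.40 ± 0.26 (FDR 0.48) and -0.08 ± 0.33 (FDR 0.962). Between 4 and 25 counts per library lie behind the mutant values, so small changes were not detectable at this depth.

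Cbr1 (ENSMUSG00000051483.9, chromosome 16 from 93605853 to 93610505), the broad carbonyl reductase of quinones, prostaglandins, and drugs, measured 65.0, 103, 62.5, 83.5, and 64.0 CPM in vehicle-treated wild-type mice. After CDDO-Me it measured 290.2, 252, 263, 342, and 452 CPM. The groups were far apart, with means of 75.5 ± 17.4 and 319.9 ± 81.6 CPM (SD, n = 5 each), a 4.24-fold increase with a log2 fold change of 2.08 ± 0.18 (SE, FDR 3.87e-05). In C151S mice it measured 79.2, 81.8, 69.1, 67.2, and 98.7 CPM with vehicle and 63.9, 84.4, 84.7, 123, and 136 CPM with CDDO-Me.

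In those C151S mice the treated group held both the lowest and the highest value for Cbr1. Nrf2-knockout mice measured 74.5, 79.5, 71.0, 68.3, and 53.8 CPM with vehicle and 88.3, 89.7, 89.5, 81.7, and 75.7 CPM with CDDO-Me. The Nrf2-knockout groups overlapped in the lowest treated mouse alone. The log2 fold changes were 0.30 ± 0.20 (FDR 0.486) in C151S and 0.27 ± 0.11 (unadjusted p 0.027; FDR 0.589) in Nrf2-knockout mice. Per kilobase, Cbr3 was 0.0150 of Cbr1 in vehicle-treated wild-type mice and 0.136 after CDDO-Me, so the Cbr1 transcript remained the more abundant of the pair in every group mean.

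Cbr4 (ENSMUSG00000031641.14, chromosome 8 from 61487734 to 61506694), a mitochondrial reductase of quinones and fatty acid intermediates, was the most even of the members. Its group means ran from 28.3 ± 1.90 to 30.6 ± 2.13 CPM over the 6 groups (SD, n = 5 each). Its log2 fold changes with CDDO-Me were -0.04 ± 0.07 in wild-type, -0.12 ± 0.08 in C151S, and -0.03 ± 0.08 in Nrf2-knockout mice. Cbr4 was called in none of the 12 comparisons, including those between genotypes.

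Ephx1 (ENSMUSG00000038776.13, chromosome 1 from 180976210 to 181020904) measured 674, 579, 519, 496, and 501 CPM in vehicle-treated wild-type mice and 1099, 1079.8, 1329, 1348, and 1532 CPM after CDDO-Me. The groups did not overlap. The means, 554 ± 74.7 and 1277 ± 189.5 CPM (SD, n = 5 each), differed 2.31-fold, with a log2 fold change of 1.20 ± 0.12 (SE, FDR 0.000135). In fold this was the smallest of the 4 increases. In CPM it was the largest gain.

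In C151S mice Ephx1 measured 416, 478, 401, 359, and 389 CPM with vehicle and 213, 440.0, 381, 389, and 433 CPM with CDDO-Me. In Nrf2-knockout mice it measured 163, 194, 152, 184, and 182 CPM with vehicle and 243, 127, 188, 180.0, and 190.0 CPM with CDDO-Me. The groups overlapped in both mutants, and replicate 1 of the treated C151S mice lay far below its group. The log2 fold changes were -0.15 ± 0.18 (FDR 0.718) in C151S and 0.07 ± 0.16 (FDR 0.933) in Nrf2-knockout mice.

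Ephx2 (ENSMUSG00000022040.8, chromosome 14 from 66084374 to 66124500) kept the same level in wild-type mice, 763 ± 70.3 CPM with vehicle and 757 ± 71.5 CPM after treatment (SD, n = 5 each), which is -0.02 ± 0.09 on the log2 scale. Per kilobase, Ephx1 stood at 0.933 ± 0.162 of Ephx2 with vehicle and at 2.14 ± 0.173 after CDDO-Me in wild-type mice. The ratio was above 1 in 2 of 5 vehicle-treated and 5 of 5 CDDO-Me-treated wild-type mice. C151S mice had ratios of 0.786 ± 0.167 with vehicle and 0.777 ± 0.221 with CDDO-Me. Nrf2-knockout mice had 0.354 ± 0.0805 and 0.355 ± 0.0959. Ephx2 was thus the more abundant of the pair per kilobase in all 10 Nrf2-knockout livers.

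**Figure D2:**
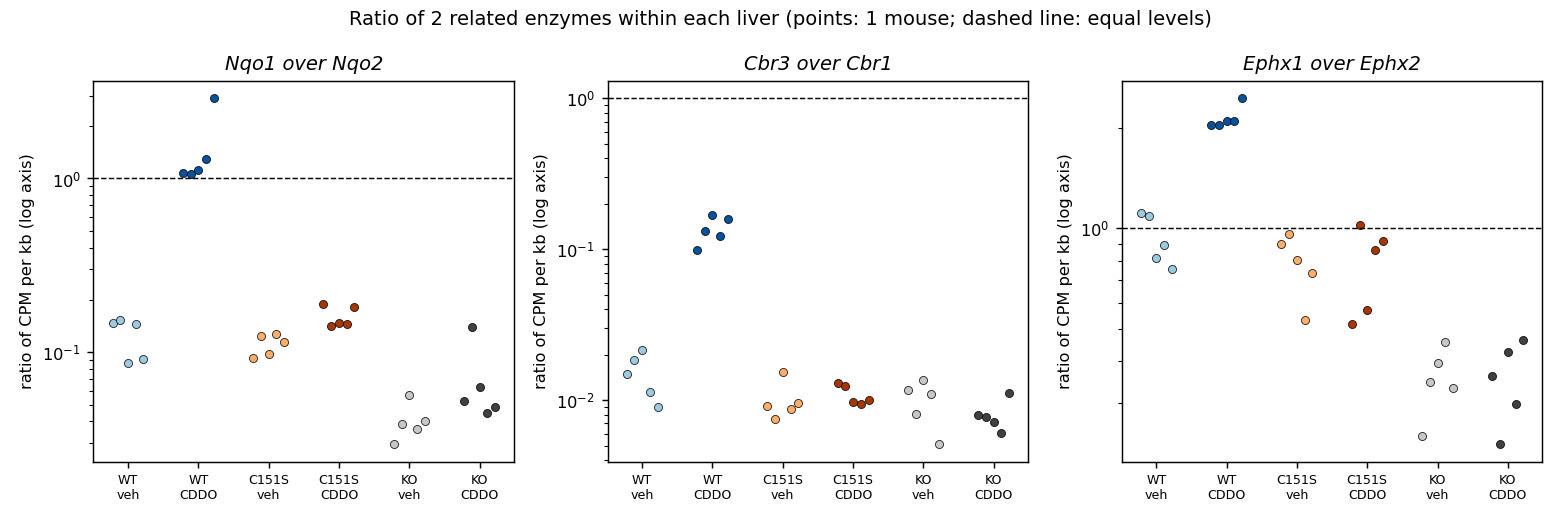
Ratio of CPM per kilobase of exon of related enzymes within each liver, on logarithmic axes, with 1 point per mouse in replicate order (n = 5 per group; veh, vehicle; KO, Nrf2-knockout). The dashed line marks equal levels, which all 5 CDDO-Me-treated wild-type mice exceed for Nqo1 over Nqo2 and for Ephx1 over Ephx2.

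The aldo-keto reductases moved little with treatment. Akr1a1 (ENSMUSG00000028692.14, chromosome 4 from 116636510 to 116651680), the aldehyde reductase that also serves ascorbate synthesis in the mouse, measured 402, 434, 395, 394, and 397 CPM in vehicle-treated and 509, 475, 525, 530.3, and 552 CPM in CDDO-Me-treated wild-type mice. The groups did not overlap, and the 1.28-fold difference passed the FDR but not the size threshold (log2 fold change 0.35 ± 0.06, FDR 0.00843). In C151S and Nrf2-knockout mice its log2 fold changes were 0.18 ± 0.11 (FDR 0.451) and 0.12 ± 0.11 (FDR 0.816). Tested directly, the wild-type response of Akr1a1 was not called different from that in C151S mice (log2 difference 0.18 ± 0.13, FDR 0.761). The same held against Nrf2-knockout mice (0.23 ± 0.13, FDR 0.869).

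Akr7a5 (ENSMUSG00000028743.7, chromosome 4 from 139310744 to 139318426), the mouse relative of the aflatoxin aldehyde reductases, had log2 fold changes of 0.07 ± 0.11 in wild-type, 0.08 ± 0.11 in C151S, and 0.07 ± 0.19 in Nrf2-knockout mice. None passed the test, and the 3 values lay within 1 SE of each other. Ptgr1 (ENSMUSG00000028378.6, chromosome 4 from 58965439 to 58987119), although it acts on the same kind of electrophile, was low in the liver and was not called. It averaged 4.55 ± 0.786 CPM with vehicle and 5.50 ± 0.639 CPM after treatment in wild-type mice (SD, n = 5 each), which is 0.26 ± 0.14 on the log2 scale (FDR 0.359). Its values in the mutants were -0.52 ± 0.28 (FDR 0.41) in C151S and -0.19 ± 0.28 (FDR 0.885) in Nrf2-knockout mice on the log2 scale. With each mouse left out in turn, they ran from -0.68 to -0.32 in C151S and from -0.32 to 0.001 in Nrf2-knockout mice.

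**Figure D3:**
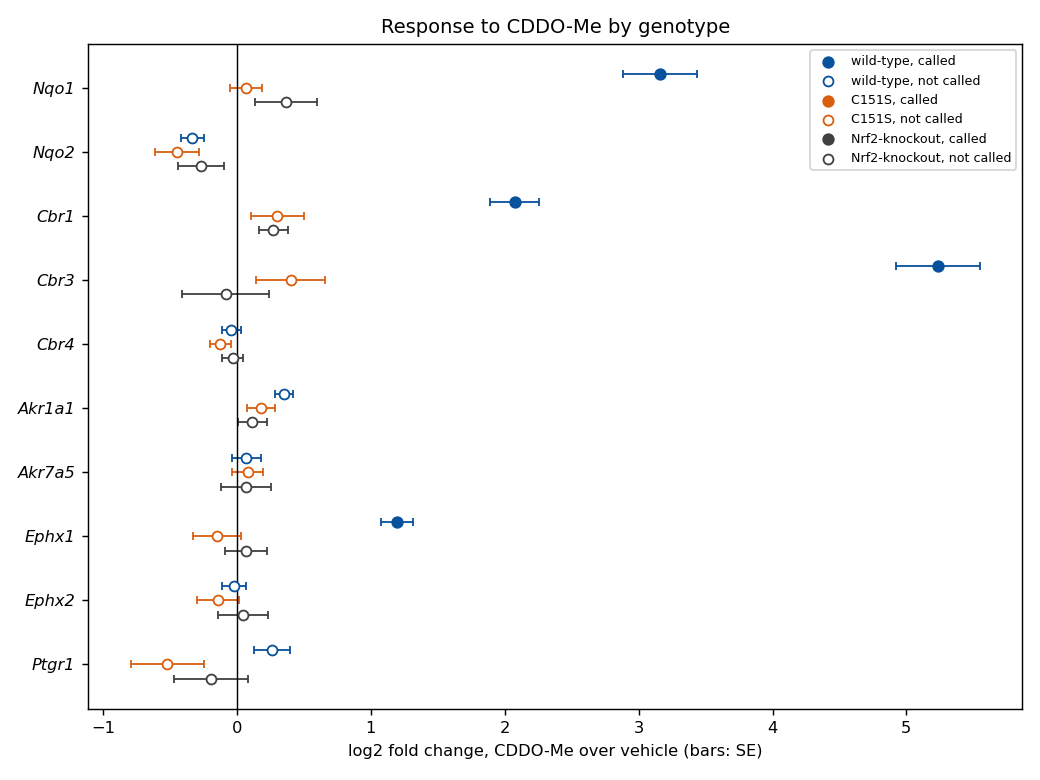
log2 fold change of each enzyme, CDDO-Me over vehicle, on the horizontal axis, in mice of the 3 genotypes (bars: SE; n = 5 per group). Filled points were called at an FDR under 0.05 and a size of at least 0.5: only Nqo1, Cbr1, Cbr3, and Ephx1 in wild-type mice are filled.

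The difference between the responses of 2 genotypes was tested directly in a fit of all 30 libraries, at an FDR under 0.05. Between wild-type and C151S mice the response differed for 4 of the 10 members, beside 0.48% of 15010 genes. These were Cbr3 at a log2 difference of 4.84 ± 0.41, Nqo1 at 3.09 ± 0.31, Cbr1 at 1.77 ± 0.25, and Ephx1 at 1.35 ± 0.23 (SE). Their FDR values ran from 1.82e-08 for Cbr3 to 0.00133 for Ephx1. Between wild-type and Nrf2-knockout mice it also differed for 4 members, beside 0.266% of genes. These were Cbr3 at 5.33 ± 0.42, Nqo1 at 2.78 ± 0.33, Cbr1 at 1.80 ± 0.25, and Ephx1 at 1.13 ± 0.23, with FDR values from 6.71e-09 to 0.0162. Leaving out replicate 5 of the vehicle-treated wild-type mice brought Ephx1 in the second test to an FDR of 0.0522. Both tests share the wild-type libraries.

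Between C151S and Nrf2-knockout mice the response differed for 0 of the 10 members, beside 0.0133% of genes. At an unadjusted p under 0.05 edgeR counted 0 members and DESeq2 called 0. The log2 differences of the members ran from -0.33 ± 0.35 for Ptgr1 to 0.49 ± 0.44 for Cbr3.

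In vehicle-treated mice, 4 of the 10 enzymes were lower in Nrf2-knockout than in wild-type livers, beside 10.4% of 14030 genes called: Nqo1, Ephx1, Akr1a1, and Akr7a5. Nqo1 and Ephx1 were thus called both in the wild-type response and in basal expression, Cbr1 and Cbr3 in the response, and Akr1a1 and Akr7a5 in basal expression. Nqo2, Cbr4, Ephx2, and Ptgr1 were called in neither. Nqo1 was 3.65-fold lower, at 1.96 ± 0.524 against 7.14 ± 2.34 CPM, with no overlap (log2 difference -1.85 ± 0.27, FDR 0.00159). Ephx1 was 3.16-fold lower, at 175 ± 17.1 against 554 ± 74.7 CPM, with no overlap (log2 difference -1.65 ± 0.11, FDR 9.51e-06). The summed level of 5 endothelial markers was 180 to 284 CPM in these Nrf2-knockout mice and 142 to 171 CPM in the wild-type mice, with no marker at the floor, and its part in the result was not tested.

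Akr1a1 measured 297, 276, 259.9, 239, and 275 CPM in vehicle-treated Nrf2-knockout mice, all below the lowest wild-type value of 394 CPM. It was 1.502-fold lower (log2 difference -0.58 ± 0.08, FDR 0.00105). With upper-quartile normalization Akr1a1 stood at -0.49 and Akr7a5 at -0.43, both under the size threshold. Akr7a5 measured 98.4, 92.6, 86.5, 62.0, and 85.9 CPM against 96.3, 131, 121, 125, and 137 CPM in wild-type mice, with 1 library of each group overlapping. It was 1.43-fold lower (log2 difference -0.51 ± 0.12, FDR 0.0188), close to the size threshold. Its call was lost without replicate 2 (log2 difference -0.49) or replicate 5 (-0.46) of the wild-type or replicate 4 (-0.42) of the Nrf2-knockout mice.

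The induced carbonyl reductases were not called in this comparison. Cbr1 differed by -0.11 ± 0.15 (FDR 0.619) and Cbr3 by -0.68 ± 0.37 (FDR 0.217) on the log2 scale. Cbr3 rests there on 4 to 27 counts per library, so the interval is wide. Ptgr1 stood at 5.98 ± 1.22 CPM in Nrf2-knockout and 4.55 ± 0.786 CPM in wild-type mice (log2 difference 0.40 ± 0.17, FDR 0.122), the only member with a value above 0.

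In C151S mice the basal expression of Nqo1 was close to that of wild-type mice. Between vehicle-treated C151S and wild-type mice 0 of the 10 members were called, beside 4.84% of 13946 genes. At an unadjusted p under 0.05 edgeR counted 3 members, beside 26.5% of all genes, and DESeq2 called 0. Nqo1 stood at 6.71 ± 0.394 CPM in C151S mice, inside the wild-type range (log2 difference -0.08 ± 0.21, FDR 0.828). Ephx1 was at 409 ± 43.8 CPM (log2 difference -0.43 ± 0.11, FDR 0.0358) and Akr1a1 at 326 ± 38.8 CPM (-0.31 ± 0.09, FDR 0.0478), both past the FDR and under the size threshold.

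Within the C151S mice, Akr1a1 differed by the side of Arntl. The 5 vehicle-treated C151S mice measured 302, 299, 291, 368, and 368 CPM, and the last 2 were the ones on the low side of Arntl. All wild-type libraries were on the high side. The 3 C151S mice on the high side, at 291 to 302 CPM of Akr1a1, lay below every vehicle-treated wild-type mouse. Ephx1 split the other way, at 359 to 389 CPM in the low-side and 401 to 478 CPM in the high-side C151S mice given vehicle. In C151S mice given CDDO-Me the sides overlapped for Ephx1, at 381 to 433 CPM (low) and 213 to 440 CPM (high). For Akr1a1 they did not, at 381 to 401 CPM (low) and 324 to 361 CPM (high). Nqo2, Akr7a5, and Ephx2 also parted by side among the vehicle-treated C151S mice, where a side holds 2 or 3 mice. In C151S mice the side followed the sample order: vehicle replicates 1 to 3 and CDDO-Me replicates 1 and 2, listed first, were high. The later C151S samples were all on the low side, so the side and any batch along that order cannot be told apart. The part of the clock or of such a batch in these differences from wild-type mice was not tested.

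Set against C151S mice directly, vehicle-treated Nrf2-knockout mice had 2 of the 10 members lower, beside 0.349% of 14323 genes called. Nqo1 differed by -1.77 ± 0.18 (FDR 0.00143) and Ephx1 by -1.22 ± 0.10 (FDR 0.000273), and neither overlapped between the groups. Within the libraries on each side of Arntl, where 2 or 3 mice remain per group, the differences were of the same size, at -1.72 and -1.80 for Nqo1 and -1.24 and -1.16 for Ephx1, with FDR values from 0.0562 to 0.119. Akr7a5 (-0.43 ± 0.13, FDR 0.29) and Akr1a1 (-0.27 ± 0.10, FDR 0.356) were not called.

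**Figure D4:**
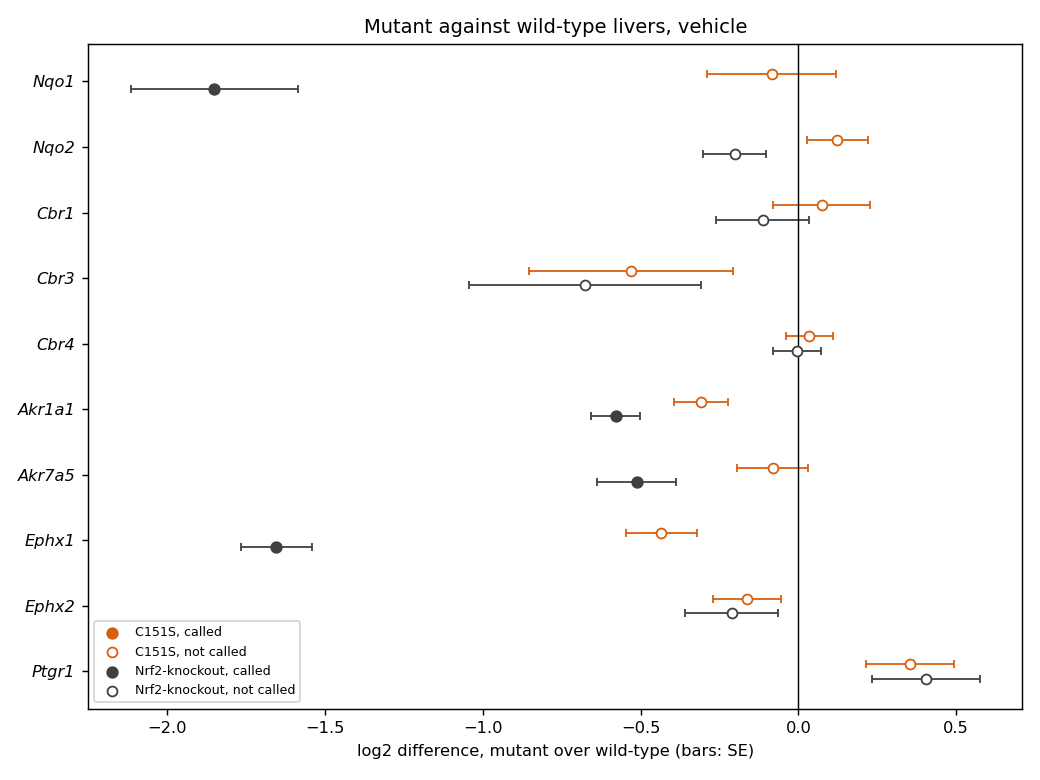
log2 difference of each enzyme, mutant over wild-type, in vehicle-treated mice on the horizontal axis, for C151S and Nrf2-knockout mice (bars: SE; n = 5 per group). Filled points were called at an FDR under 0.05 and a size of at least 0.5: Nqo1, Akr1a1, Akr7a5, and Ephx1 in Nrf2-knockout mice are filled, all to the left of 0, and no point of C151S mice is.

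After CDDO-Me both mutants stood further from wild-type mice in the 4 induced members. In C151S against wild-type mice 4 members were lower, beside 5.0% of 13844 genes called: Cbr3 (log2 difference -5.36 ± 0.28), Nqo1 (-3.17 ± 0.23), Ephx1 (-1.78 ± 0.19), and Cbr1 (-1.70 ± 0.22). In means this was 42.0-fold for Cbr3, 9.05-fold for Nqo1, 3.44-fold for Ephx1, and 3.25-fold for Cbr1. Akr1a1 passed the FDR at a log2 difference of -0.48 ± 0.09 (FDR 0.0109), just under the size threshold, and it passed both without replicate 2 of the wild-type mice (-0.52) or replicate 3 (-0.50) or 5 (-0.52) of the C151S mice.

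In Nrf2-knockout against wild-type mice after CDDO-Me, 5 members were lower, beside 9.44% of 13935 genes called. Cbr3 differed by -6.00 ± 0.29, Nqo1 by -4.63 ± 0.26, Ephx1 by -2.78 ± 0.18, Cbr1 by -1.91 ± 0.15, and Akr1a1 by -0.81 ± 0.10 on the log2 scale. The treated wild-type livers held 24.9-fold more Nqo1 and 6.88-fold more Ephx1 transcript than the treated Nrf2-knockout livers. Akr7a5 stood at -0.51 ± 0.17 (FDR 0.074), and DESeq2, which called 6 members, gave it an adjusted p of 0.0352. Without replicate 1 of the treated Nrf2-knockout mice it was called, at -0.65.

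Between treated Nrf2-knockout and C151S mice 1 member was called, beside 0.162% of 14186 genes. Nqo1 was 2.75-fold lower in Nrf2-knockout mice (log2 difference -1.46 ± 0.19, FDR 0.0108), with no overlap between 1.89 to 3.43 and 5.59 to 8.12 CPM. Within the libraries on the high side of Arntl its log2 difference was -1.22 and it was not called, and within the low side it was -1.64 (FDR 0.023). Ephx1 had a log2 difference of -1.003 ± 0.22 (FDR 0.164). Without replicate 1 of the treated C151S mice, the low library, its value was -1.15 (FDR 0.0258) and 2 members were called.

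By level per kilobase, the epoxide hydrolases led and the induced reductases changed rank. In vehicle-treated wild-type mice the order of group means was Ephx2 at 307, Ephx1 at 284, Akr1a1 at 147, Akr7a5 at 68.1, Nqo2 at 36.2, and Cbr1 at 29.6 CPM per kilobase, followed by Cbr4 at 4.79, Nqo1 at 4.60, Ptgr1 at 1.98, and Cbr3 at 0.448. The neighbours Ephx2 and Ephx1 differed by less than their spread, as did Cbr4 and Nqo1. Nqo2 and Cbr1 overlapped, at 33.0 to 39.4 and 24.5 to 40.2 CPM per kilobase. After CDDO-Me Ephx1 led at 655 CPM per kilobase, Cbr1 rose to rank 4 at 125, Nqo1 to rank 6 at 41.2, and Cbr3 to rank 8 at 17.2. These levels and ranks are descriptions with no test.

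In the treated wild-type mice the extremes of several members fell in the same library, a description with no test. Replicate 5 held the highest value of its group for 6 members, Nqo1, Cbr1, Cbr3, Akr1a1, Akr7a5, and Ephx1, and the lowest for 2, Nqo2 and Ptgr1. Replicate 2 held the lowest for 6, Nqo1, Cbr1, Akr1a1, Akr7a5, Ephx1, and Ephx2. Among the treated C151S mice, replicate 1 was lowest for 7 members. Without replicate 5 of the treated wild-type mice the log2 fold changes were 4.99 for Cbr3, 1.92 for Cbr1, and 1.12 for Ephx1, and the 4 calls were kept.

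A further list of 35 genes for enzymes of quinone, carbonyl, epoxide, and enone metabolism put the members in context. In wild-type mice 30 were tested and 5 rose with CDDO-Me: Akr1b8 (log2 fold change 1.82 ± 0.16), an aldo-keto reductase of reactive aldehydes, Blvrb (1.29 ± 0.08), the biliverdin reductase B that is also a flavin reductase, Txnrd1 (1.11 ± 0.09), thioredoxin reductase, Akr1c19 (1.00 ± 0.10), an aldo-keto reductase, and Akr1d1 (0.56 ± 0.11), the steroid 5β-reductase of bile acid synthesis. Of all genes tested, 2.75% were called in either direction. The median log2 fold change was 0.13 over the 30 enzymes, against -0.01 for all genes. The list had 0 calls in C151S mice, where edgeR gave 1 gene an unadjusted p under 0.05, and 0 in Nrf2-knockout mice, where it gave 4, and DESeq2 called 0 in both.

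In vehicle-treated Nrf2-knockout mice 31 of these genes were tested against wild-type mice, and 5 were lower and 1 higher, beside 10.4% of all genes called. The lower ones were Blvrb (-1.12 ± 0.16), Txnrd1 (-0.90 ± 0.08), Akr1c19 (-0.83 ± 0.16), Akr1c14 (-0.76 ± 0.17), and Akr1c6 (-0.53 ± 0.16). Blvrb, Txnrd1, and Akr1c19 were called in both comparisons, as were Nqo1 and Ephx1 among the members. Akr1c18 was higher (2.10 ± 0.60) on 1 to 43 counts per library. In vehicle-treated C151S mice 1 of the 30 tested was called, Blvrb (-0.63 ± 0.16), beside 4.84% of all genes, and in 7 of the 10 fits that left out 1 mouse the list had 0 calls.

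Of 14985 genes, those whose 6 group means lay nearest to each induced member, by the root mean square difference of centred log2 CPM, were named. Nearest to Nqo1 were Gstm2-ps1 (0.29), Gstm3 (0.32), and Gstm1 (0.33), and nearest to Ephx1 were Ugdh (0.13), Ugt2b5 (0.13), and Gclc (0.18). Nearest to Cbr1 were Ovol3 (0.26), Gbe1 (0.28), and Slc48a1 (0.29). Cbr3 had no gene as near, with Gm12498 (0.65), Gpx2 (0.79), and Nqo1 (0.83). The measure rests on 6 groups, was not scaled to the size of the change, and was not tested. Cbr3 had the largest change of the members and only 4 to 27 counts per library outside the treated wild-type mice.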

How the data were processed

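Libraries of polyadenylated RNA were made by the authors with a stranded kit from the livers of 30 mice and read as paired ends of 50 bases. The authors aligned the reads to mm10 with STAR 2.7.7 and deposited raw counts per gene of the matching strand, for GENCODE mouse release 23, as whole numbers without normalization. Groups follow the labels for genotype and treatment. Of the 55335 genes, 55154 were given a symbol and position from GENCODE release 21 (GRCm38). STAR counts only reads with a single position, and its 4 summary rows were left out. Depth was 23667068 to 42073169 counts per library.

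Each pair of groups was fitted on its own 10 libraries with edgeR 4.0.16 (R 4.3.3): filterByExpr, TMM normalization (trimmed mean of M values), then the quasi-likelihood F-test in its earlier form, adjusted over all genes tested. A gene was called when its FDR was under 0.05 and its log2 fold change at least 0.5 in size, the thresholds of the study. Differences between responses were contrasts in a fit of all 30 libraries at an FDR under 0.05. Standard errors were derived from the log2 fold change and the root of its F statistic. The study's covariate, the date of isolation, was not used here, so p values measure the spread between mice with any such batches left in. Batches that follow the groups would also shift the group differences themselves. The floor of detection was set at 3 counts per library. Reads carry no molecular identifiers. The fits were tested on simulated counts with known changes.

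The members and gene lists were chosen with earlier results of these data known. The genes named are all members; of the 35 further enzymes, those called in the wild-type response or between vehicle-treated Nrf2-knockout and wild-type mice, at most 6 in each; the 3 nearest patterns of each induced member; and Nfe2l2, Keap1, and Arntl. Akr1b7 and Aifm2 were named outside this rule, after their values were seen. Keap1 averaged 45.0 to 68.2 CPM over the groups. Over all libraries the marker sums ran from 135 to 284 CPM for endothelial, 18.0 to 61.6 CPM for cholangiocyte, 104 to 391 CPM for stellate, 0.320 to 15.0 CPM for neutrophil, and 8.09 to 43.1 CPM for pancreatic acinar markers. Ly6g, Pnlip, Cpa1, and Amy2b were at the floor in all libraries. Alternatives, each tried alone, were upper-quartile normalization, DESeq2 1.42.0, the edgeR 4 quasi-likelihood form, other filters on low counts, 1 surrogate variable (sva 3.50.0), a replicate block, a fit of all 30 libraries, other size thresholds, the side of Arntl, the looser motif, CPM without scaling, and each mouse left out. Promoter windows are from RefSeq, and coding sequences from the GENCODE transcripts on GRCm38.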

Additional observations from a re-analysis of the deposited data

Results flagged for a closer look

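A mouse lay apart from its group, by the gap to its nearest neighbour relative to the range of the group, in 5 of the 60 combinations of member and group, where chance alone marks about 1 in 20. These were Nqo1 at 109 CPM in replicate 5 of the CDDO-Me-treated wild-type mice, Akr1a1 at 434 CPM in replicate 2 of the vehicle-treated wild-type mice, Ephx1 at 213 CPM in replicate 1 and Ephx2 at 848 CPM in replicate 3 of C151S mice given CDDO-Me, and Nqo2 at 63.9 CPM in replicate 2 of the CDDO-Me-treated Nrf2-knockout mice.

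The response to CDDO-Me differed between genotypes for 4 members, by contrasts over all 30 libraries. Against C151S mice the wild-type response was larger by a log2 difference of 3.09 for Nqo1, 1.77 for Cbr1, 4.84 for Cbr3, and 1.35 for Ephx1. Against Nrf2-knockout mice it was larger by 2.78 for Nqo1, 1.80 for Cbr1, 5.33 for Cbr3, and 1.13 for Ephx1.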

How the results depend on the processing

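Over the alternatives and single-mouse omissions, 2842 of 2869 values of single members kept their side of the threshold. In 142 of them, from 33 of the 120 pairs of member and comparison, the sign changed with neither value called, and 0 called values changed sign. The number of members called moved by more than 1.5 times in these cases, and the cause was not tested. For C151S against wild-type mice with vehicle it was 2 without a size threshold. For Nrf2-knockout against wild-type mice with vehicle it was 2 with upper-quartile normalization, which took Akr1a1 to -0.49 and Akr7a5 to -0.43. For Nrf2-knockout against C151S mice with vehicle it was 0 within the high and 0 within the low side of Arntl, where fewer libraries are left. For the same genotypes after CDDO-Me it was 2 with DESeq2, 1 surrogate variable, the fit of all 30 libraries, or within the low side of Arntl, 0 within the high side, and 1 to 2 over the single-mouse omissions. Among the further enzymes, the count was 3 in the fit of all 30 libraries and 8 without a size threshold for the wild-type response, and 1 in the fit of all 30 libraries for the Nrf2-knockout response. It was 3 with 1 surrogate variable, 3 without a size threshold, and 0 to 2 over single-mouse omissions for C151S against wild-type mice with vehicle. It was 2 with 1 surrogate variable for Nrf2-knockout against wild-type mice with vehicle. Over all genes, the wild-type response had 377 calls and 147 in the fit of all 30 libraries, and the C151S response had 13 calls and 0 with 1 surrogate variable, 34 in the fit of all 30 libraries, and 100 with DESeq2. The looser motif occurred in 1 promoter window.

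Mice of different groups share replicate numbers, but nothing says that the numbers mark pairs, and in no comparison did all 5 same-numbered pairs of residuals correlate above 0.1. The most was 3 of 5, in the Nrf2-knockout treatment comparison, and in none did every mouse correlate best with its own number. With the replicate block, the members called fell to 0 for Nrf2-knockout against C151S mice after CDDO-Me, the response difference of Ephx1 between wild-type and Nrf2-knockout mice had an FDR of 0.106, and 2 further enzymes were called for C151S against wild-type mice with vehicle.

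Depth limits Cbr3 outside the treated wild-type mice, where it rests on 4 to 27 counts per library.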

Other observations

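After CDDO-Me, 8 of 30 further enzymes were lower and 0 higher in C151S than in wild-type mice, beside 5.0% of all genes called, and 9 were lower and 2 higher in Nrf2-knockout than in wild-type mice, beside 9.44% of all genes. Blvrb had a log2 difference of -1.61 ± 0.13 in C151S and -2.47 ± 0.15 in Nrf2-knockout mice, and Txnrd1 had -1.36 ± 0.13 and -1.75 ± 0.12. For Akr1b8 the values were -1.71 ± 0.17 and -1.97 ± 0.21. Both sets of values share the treated wild-type mice. At an FDR under 0.05, the response to CDDO-Me differed between wild-type and Nrf2-knockout mice for 3 of the 31 tested, beside 0.266% of all genes. These were Akr1b8 (2.43 ± 0.27), Blvrb (1.35 ± 0.26), and Txnrd1 (0.85 ± 0.16). Between wild-type and C151S mice it differed for Akr1b8 (1.93 ± 0.26) and Txnrd1 (0.95 ± 0.16), beside 0.48% of all genes.

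The 2 enzymes that were higher in treated Nrf2-knockout than in treated wild-type mice, named after their values were seen, were Akr1b7 (4.36 ± 1.16) and Aifm2 (0.56 ± 0.16). Akr1b7, an aldose reductase-like protein, ranged from 1.70 to 80.9 CPM over the treated Nrf2-knockout mice with a median of 1.96 CPM, and from 0.521 to 1.20 CPM over the treated wild-type mice, so its mean of 18.4 CPM rests largely on a single mouse.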
